A study of Mus musculus with 17 samples.

Results

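Fos, Fosb, Jun, Junb, Egr1, Ier2, Nr4a1, Zfp36, Dusp1 and Klf6 are immediate early genes, chosen by symbol as genes that cell isolation is known to induce. All 10 were found among the 55536 genes of the RNA-seq tables, and all 10 passed the filter on low counts that left 14393 genes to test. They were followed across 11 libraries of hepatocytes freed from mouse liver by collagenase perfusion.

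The WRE-edited group (6 libraries, condition DLK1DWRE in the labels) was edited with SaCas9 at the site that β-catenin binds, the WRE, which lies upstream of DLK1/DIO3, and the Rosa26-edited group (5 libraries, condition ROSA26) was edited at Rosa26, a locus often chosen as a control cut. Every mouse in both groups was C57BL/6J, 3 months old and of the ApcDHep genotype, a name for Apc deletion in hepatocytes, and had received AAV8 with its construct for 1 month and tamoxifen (2 mg, 7 days). No group with intact Apc, without tamoxifen or without AAV8 was analysed here, and neither the Cre driver nor the promoter of SaCas9 is given in the labels. The labels do not say whether libraries came from separate mice, so p-values measure the spread between libraries, which may be technical. By the library names, WRE-edited 1 to 3 and Rosa26-edited 1 to 3 belonged to run r770, WRE-edited 4 and 5 to r711, and WRE-edited 6 with Rosa26-edited 4 and 5 to r595. The names of WRE-edited 4 and 6 carry the same number, and whether they share an animal is not stated.

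Immediate early genes are transcribed within minutes of a growth factor, stress or mechanical signal, without new protein synthesis, because their promoters are bound in advance by factors such as SRF with its ELK partners and CREB, which MAP kinases and other kinases switch on. Their products are mostly transcription factors, together with phosphatases and RNA-binding proteins that shut the same response down. In liver they are known for rising after partial hepatectomy and while tissue is dissociated with enzymes. No unperfused liver was analysed here, so the effect of the isolation itself was not tested.

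Rosa26-edited 1 stood apart from the other 10 libraries, and results that turn on it are given with and without it. It held the highest value of all 10 immediate early genes. It was also the deepest library, with 38935115 expected counts against 20727024 to 36796813 in the others. Mitochondrial ribosomal RNA made up 28.1% of its counts, close to the 28.0% of Rosa26-edited 2, within a range of 19.0% to 29.1% in r770 and r711 and of 2.29% to 3.00% in r595. Rian, a non-coding RNA of the DLK1/DIO3 locus that checks the edit, was between 48.7 and 113 CPM (counts scaled to library size with TMM factors) in WRE-edited libraries, against 405 CPM in Rosa26-edited 1 and 171 to 361 CPM in the other Rosa26-edited libraries (log2 fold change -2.30 ± 0.26 SE, edgeR adjusted p = 0.0188).

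The promoters of 4 of the genes are shown as examples that carry motifs through which early genes are known to be switched on. Those of Fosb and Junb carry such a motif too and are not shown. All 10 genes had their highest level in Rosa26-edited 1, and a link between motif and level was not tested. Each line gives the 250 bases before a RefSeq start site, 5′ to 3′ on the gene's strand (GRCm38.p6). Capitals mark TGACG, the core of the cAMP response element bound by CREB (CGTCA where it lies on the other strand), and in Zfp36 the CArG box bound by SRF. The window of Fos is chr12:85473640-85473889, plus strand, that of Nr4a1 chr15:101266596-101266845, plus strand, that of Dusp1 chr17:26508473-26508722, minus strand, and that of Zfp36 chr7:28379229-28379478, minus strand.
Fos: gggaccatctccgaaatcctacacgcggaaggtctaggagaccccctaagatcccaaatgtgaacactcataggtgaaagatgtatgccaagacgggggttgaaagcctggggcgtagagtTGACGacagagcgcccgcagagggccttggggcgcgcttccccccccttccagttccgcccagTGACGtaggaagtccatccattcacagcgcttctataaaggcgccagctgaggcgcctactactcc
Nr4a1: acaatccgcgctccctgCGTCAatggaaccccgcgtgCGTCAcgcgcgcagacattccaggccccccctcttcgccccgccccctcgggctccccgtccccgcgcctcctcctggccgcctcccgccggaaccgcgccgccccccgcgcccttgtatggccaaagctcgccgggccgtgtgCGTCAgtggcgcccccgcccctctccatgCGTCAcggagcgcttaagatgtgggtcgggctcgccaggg
Dusp1: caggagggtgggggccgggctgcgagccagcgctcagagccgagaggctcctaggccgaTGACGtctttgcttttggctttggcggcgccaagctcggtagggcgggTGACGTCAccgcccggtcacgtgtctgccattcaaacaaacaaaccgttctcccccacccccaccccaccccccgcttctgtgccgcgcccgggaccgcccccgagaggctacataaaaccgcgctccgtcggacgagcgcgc
Zfp36: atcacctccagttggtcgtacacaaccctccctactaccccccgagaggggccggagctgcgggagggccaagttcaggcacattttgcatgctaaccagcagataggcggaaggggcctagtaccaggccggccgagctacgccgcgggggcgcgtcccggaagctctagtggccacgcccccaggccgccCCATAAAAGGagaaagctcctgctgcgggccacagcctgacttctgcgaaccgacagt

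Of the 10 genes, 8 had a RefSeq promoter window, which runs from 250 bases before to 50 bases after the start. TGACG was found on either strand in 5 of these 8 (Fos, Fosb, Junb, Nr4a1 and Dusp1), while 20.8% of all 32851 RefSeq windows hold it. Its matches began 129 and 66 bases before the start of Fos, and 233, 213, 69 and 40 bases before that of Nr4a1, whose window starts at an inner start site of the annotated gene. The whole cAMP response element TGACGTCA, which contains the core once on each strand, was found in Dusp1 alone among the 8 and in 1.79% of all windows. A CArG box was found in Zfp36 alone among the 8 and in 1.63% of all windows. Sites outside the windows were not searched, so a gene without a motif here may hold it farther away. Neither the AP-1 site TGANTCA (7.81% of all windows) nor the Egr site GCGTGGGCG (0.612%) was found in any of the 8. The windows of Jun and Klf6 held none of the motifs searched, though both genes were highest in Rosa26-edited 1 too. Ier2 had no window in the table, and Egr1 was not among the 8 either. In RefSeq's GRCm38.p6 annotation Fos spans chr12:85473890-85477274, Jun chr4:95049036-95052222, Zfp36 chr7:28376784-28379228, Nr4a1 chr15:101253902-101274795, Dusp1 chr17:26505591-26508472 and Klf6 chr13:5861489-5870393. Fosb lies on chromosome 7 with Zfp36, Junb and Ier2 share chromosome 8, and Egr1 lies on chromosome 18.

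By TPM, RSEM's abundance corrected for transcript length, which allows levels to be compared between genes, the 10 genes covered a wide range. Zfp36 had the highest median over the 11 libraries at 17.4 TPM, followed by Jun at 16.5, Dusp1 at 12.8, Junb at 12.7, Fos at 8.58, Klf6 at 7.76, Nr4a1 at 6.93, Egr1 at 3.51, Ier2 at 2.48 and Fosb at 0.50 TPM. Fosb was the lowest of the 10 in each library, with a maximum of 1.20 TPM. The ranges of neighbours in this order overlapped across libraries: Zfp36 ran from 7.29 to 35.3 TPM and Jun from 6.37 to 41.4 TPM. Behind these levels lay 26 to 209 counts per library for Fosb and 1029 to 6984 for Jun, so relative counting error was largest for Fosb. TPM includes the mitochondrial transcripts, whose share differed between runs.

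The AP-1 genes encode the FOS and JUN proteins that pair through leucine zippers to bind DNA. Fos had a lowest value of 4.36, a median of 14.2 and a highest value of 22.3 CPM in WRE-edited libraries, against 65.0, 10.9, 17.2, 16.7 and 22.6 CPM in Rosa26-edited 1 to 5. Fosb had 1.10, 1.83 and 3.01 CPM as the lowest, median and highest in WRE-edited libraries, against 6.22, 0.793, 3.82, 1.52 and 1.91 CPM in Rosa26-edited 1 to 5. For both FOS genes the groups overlapped, and WRE-edited 1 and 5 were near the bottom of the range.

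Jun, the main partner of FOS proteins, had a lowest value of 41.6, a median of 77.2 and a highest value of 139 CPM in WRE-edited libraries, against 208, 34.5, 60.1, 110 and 71.8 CPM in Rosa26-edited 1 to 5. Its highest WRE-edited value was WRE-edited 6, of r595, and its lowest value of all was Rosa26-edited 2. Junb, a weaker activator of the same family, had 13.01, 27.1 and 42.3 CPM as the lowest, median and highest in WRE-edited libraries, against 93.8, 21.9, 29.0, 22.2 and 32.5 CPM in Rosa26-edited 1 to 5. Away from Rosa26-edited 1, the Junb values of the Rosa26-edited libraries all lay within the WRE-edited range.

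Egr1 encodes a zinc finger factor that drives growth response genes. It had a lowest value of 5.70, a median of 12.96 and a highest value of 17.5 CPM in WRE-edited libraries, against 53.2, 5.89, 17.1, 14.98 and 10.1 CPM in Rosa26-edited 1 to 5. The 4 Rosa26-edited libraries other than the first lay within the WRE-edited range. Nr4a1 encodes an orphan nuclear receptor induced by growth and stress signals. It had 5.74, 12.3 and 22.5 CPM as the lowest, median and highest in WRE-edited libraries, against 45.4, 10.4, 14.5, 23.9 and 22.4 CPM in Rosa26-edited 1 to 5. For Nr4a1 the r595 libraries were high in both groups, at 22.5 CPM in WRE-edited 6 against 23.9 and 22.4 CPM in Rosa26-edited 4 and 5.

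Klf6 encodes a zinc finger factor of the Krüppel-like family. It had a lowest value of 20.4, a median of 27.2 and a highest value of 37.0 CPM in WRE-edited libraries, against 106 CPM in Rosa26-edited 1 and 31.4, 13.6, 19.9 and 29.3 CPM in Rosa26-edited 2 to 5. Its lowest value was in Rosa26-edited 3, a library that was second highest for Fosb. Ier2, a nuclear protein made early after growth stimulation, had 3.51, 5.67 and 9.31 CPM as the lowest, median and highest in WRE-edited libraries, against 31.3, 3.02, 7.31, 3.88 and 4.81 CPM in Rosa26-edited 1 to 5. The Ier2 value of Rosa26-edited 1 was 3.36 times that of the next library, the widest such gap among the 10 genes.

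Both feedback genes had the narrowest ranges over the 11 libraries, an order that did not hold without Rosa26-edited 1. Zfp36 encodes tristetraprolin, which binds AU-rich mRNAs and speeds their decay. It had a lowest value of 32.6, a median of 57.5 and a highest value of 69.9 CPM in WRE-edited libraries, against 144, 31.7, 57.9, 83.9 and 56.1 CPM in Rosa26-edited 1 to 5. Dusp1, a phosphatase that switches off MAP kinases, had 16.1, 32.7 and 44.1 CPM as the lowest, median and highest in WRE-edited libraries, against 53.1, 22.8, 30.8, 31.8 and 26.6 CPM in Rosa26-edited 1 to 5. Dusp1 had the smallest range over the 11 libraries, 3.30-fold, and the smallest gap between Rosa26-edited 1 and the next library, 1.21-fold, while Fos had the widest range at 14.9-fold. Without Rosa26-edited 1 the ranges were 2.65-fold for Zfp36, 2.72-fold for Klf6, 2.74-fold for Dusp1, 4.81-fold for Fosb and 5.19-fold for Fos, so Dusp1 was no longer the narrowest and Fos lay close to Fosb.

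**Figure D1:**
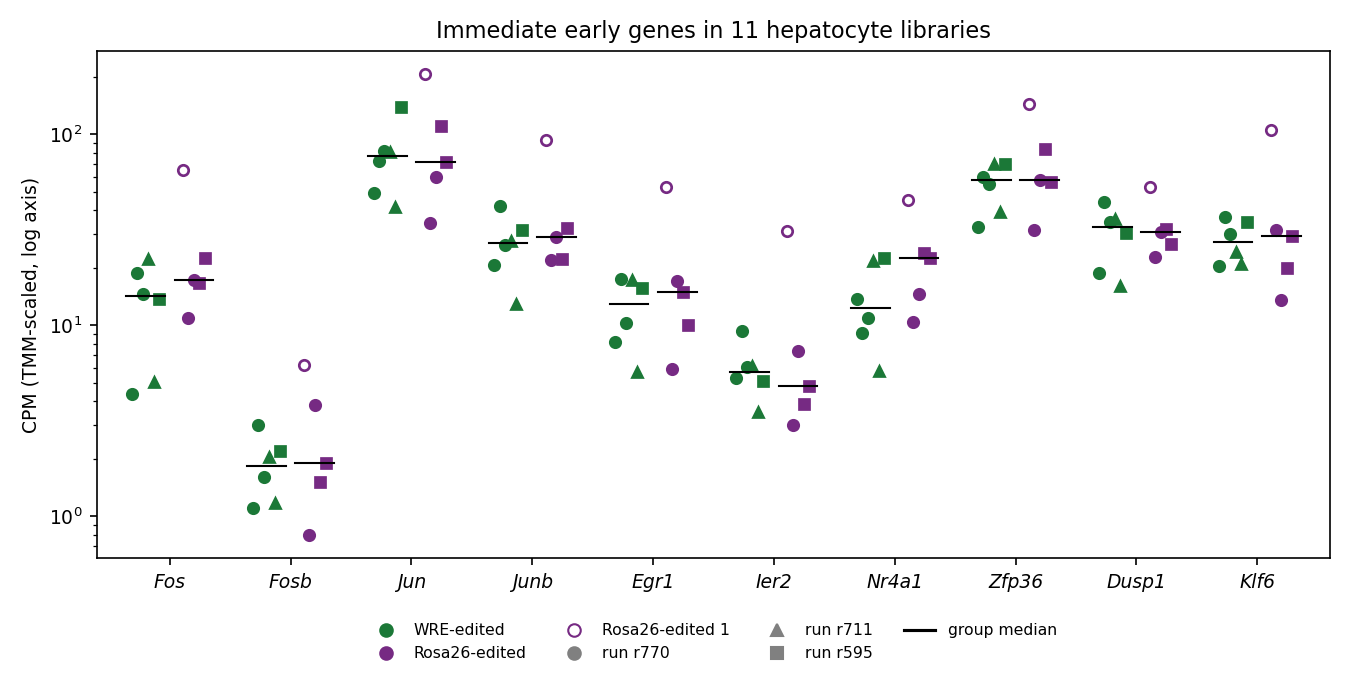
CPM (log axis) of each immediate early gene in the 11 libraries, WRE-edited in green and Rosa26-edited in purple, with the run as the symbol, Rosa26-edited 1 as an open circle and a line at each group's median. The open circle is the highest point for all 10 genes, and the other Rosa26-edited libraries overlap the WRE-edited ones.

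Summed over the 10 genes, the level was 806 CPM in Rosa26-edited 1 and between 152 and 365 CPM in the other 10 libraries. Within r770 the sums were 175, 314 and 272 CPM in WRE-edited 1 to 3, against 806, 173 and 252 CPM in Rosa26-edited 1 to 3. Within r595 they were 365 CPM in WRE-edited 6 against 329 and 278 CPM in Rosa26-edited 4 and 5. The 2 WRE-edited libraries of r711 had 308 and 152 CPM, and all 10 genes were higher in WRE-edited 4 than in WRE-edited 5, by a median of 1.03 and a range of 0.20 to 2.12 on the log2 scale. WRE-edited 2 was likewise above WRE-edited 1, of the same edit and run, for 9 of the 10 genes, by a median of 0.95. Between WRE-edited 6 and WRE-edited 4, which share a number in their names, 6 of the 10 genes were higher in WRE-edited 6, and the median log2 difference was 0.03. For these pairs of libraries the share of all genes that went the same way was not counted, so the counts are not particular to the 10 genes.

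The spread within run and group was wide for every one of the 10 genes. The residual SD of log2 CPM was 1.18 for Fos, 1.08 for Egr1, 1.03 for Ier2 and 0.98 for Fosb, and 0.61 for Dusp1, the lowest of the 10. The median of the 10 was 0.89, against 0.29 over all genes tested. Only 1.19% of all tested genes had a larger residual SD than Fos, and 13.4% a larger one than Dusp1. Without Rosa26-edited 1 the median of the 10 was 0.56 against 0.29, and the share of genes with a larger residual SD was 2.71% for Fos, 5.13% for Fosb, 6.53% for Egr1 and between 12.2% and 22.3% for the other 7. In edgeR the biological coefficient of variation of Fos was 0.65 against a trend of 0.19 at its abundance, and 0.49 against 0.20 without Rosa26-edited 1.

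The comparison of the edits asked whether cutting the WRE moved the early genes relative to cutting Rosa26 within a run. None of the 10 passed. All 10 fold changes were negative with all libraries, with a median log2 fold change of -0.49 against 0.01 over all genes tested, but without Rosa26-edited 1 there were 7 positive and 3 negative ones and a median of 0.18 against 0.02. In edgeR's quasi-likelihood test with the run as a term, 0 of the 10 passed at an adjusted p under 0.05, 0 had an unadjusted p under 0.05 and DESeq2 called 0. Over all genes edgeR called 1, or 0.00695% of those tested, DESeq2 called 81 (0.563%), and at an unadjusted p under 0.05 edgeR had 5.14% lower and 4.95% higher. Fitted without a filter on low counts, edgeR called 450 genes, among them Fos, Egr1 and Nr4a1 as lower. Their log2 fold changes there, -1.05, -0.63 and -0.74, were close to those with the filter. The fit without a filter was not run without Rosa26-edited 1. The share of its tested genes that the 450 make up is not given here, so its calls are not read as a result about the 10 genes.

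Fos had the most negative log2 fold change, -1.06 ± 0.67 (SE; edgeR adjusted p = 0.596), with means of 13.1 ± 7.21 CPM in WRE-edited libraries (SD, n = 6) and 26.5 ± 21.9 CPM in Rosa26-edited libraries (SD, n = 5). Without Rosa26-edited 1 the mean of Rosa26-edited libraries was 16.9 ± 4.78 CPM (SD, n = 4) and the log2 fold change was -0.28 ± 0.53 (edgeR adjusted p = 0.891). Nr4a1 had -0.73 ± 0.50 (SE; edgeR adjusted p = 0.615), and -0.11 ± 0.33 without Rosa26-edited 1. The size of both values thus moved with that library while the sign held.

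For 7 genes the sign itself turned without Rosa26-edited 1. Ier2 had a log2 fold change of -0.64 ± 0.61 with all libraries and 0.36 ± 0.31 without it. Jun had -0.18 ± 0.51 and 0.56 ± 0.27, and Klf6 had -0.37 ± 0.54 and 0.43 ± 0.27. Egr1 had -0.63 ± 0.63 and 0.16 ± 0.43, Junb -0.40 ± 0.46 and 0.23 ± 0.28, Zfp36 -0.45 ± 0.41 and 0.089 ± 0.28, and Dusp1 -0.067 ± 0.31 and 0.21 ± 0.30. Fosb kept its sign, at -0.52 ± 0.52 and -0.040 ± 0.48. The edgeR adjusted p of the 10 genes lay between 0.596 and 0.949 with all libraries and between 0.646 and 0.984 without Rosa26-edited 1, so no direction can be given for any of them, and these errors do not show that the edits acted alike.

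**Figure D2:**
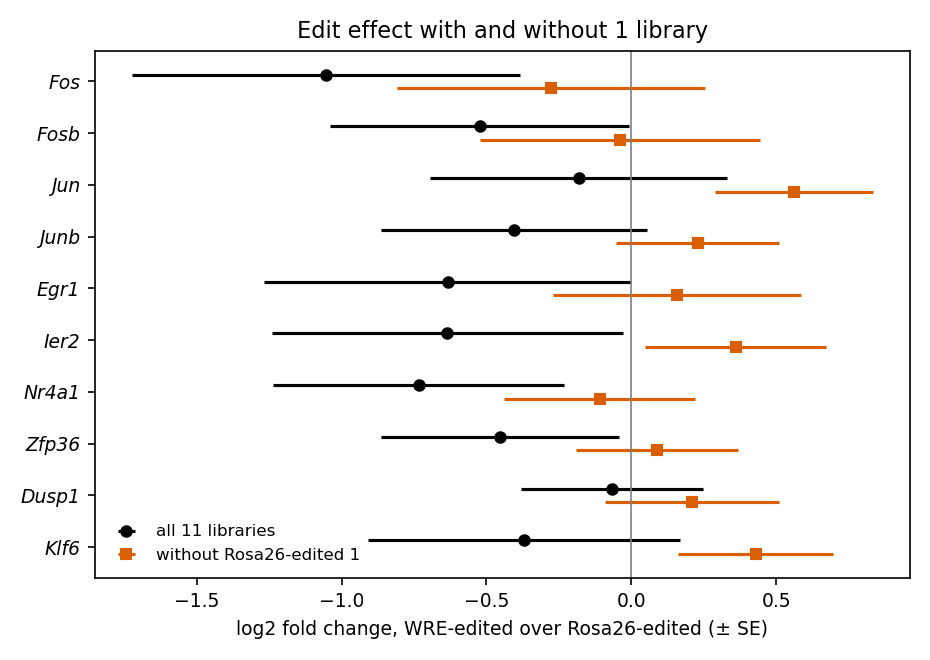
Log2 fold change, WRE-edited over Rosa26-edited, with its SE for each immediate early gene, from all 11 libraries (black circles) and without Rosa26-edited 1 (orange squares). All 10 circles are below 0, and 7 of the 10 squares are above it.

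With all libraries, the 2 runs with both edits gave values on different sides of 0 for most of the genes, and without Rosa26-edited 1 on the same side for most. Within r770 the differences of mean log2 CPM ran from -1.11 for Fos to -0.13 for Dusp1, all 10 negative. Within r595, where 1 WRE-edited library stood against 2 Rosa26-edited ones, they ran from -0.49 for Fos to 0.64 for Jun, with 8 positive. The runs thus shared a sign for 2 of the 10 genes. Without Rosa26-edited 1, r770 ran from -0.37 for Fos to 0.55 for Jun with 7 positive, and the runs shared a sign for 9 of the 10, all but Fosb. How often the runs share a sign over all genes was not counted. As an interaction of edit and run in edgeR, the difference between the runs passed for 0 of the 10 genes, with 0 at an unadjusted p under 0.05, where 6.52% of all genes were. Its size ranged from 0.19 ± 0.64 for Dusp1 to 1.39 ± 1.28 for Egr1 on the log2 scale (SE; edgeR adjusted p = 0.963 and 0.839).

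The 10 genes varied together across libraries. Pairs of other genes were not read beside them, so whether this is particular to the 10 was not tested. For each of the 45 pairs the correlation was taken over log2 CPM centred within run, so that differences between runs did not enter, with 100000 permutations within run and Benjamini-Hochberg adjustment over the 45 pairs. Pearson's r was positive for all 45, with a median of 0.82 and a range of 0.45 to 0.97, and 27 pairs passed at an adjusted permutation p under 0.05. Spearman's rho had a median of 0.76 and a range of 0.20 to 0.97, and 14 pairs passed. Without the 2 libraries farthest from the median of the first gene of each pair, the median r was 0.64 and 44 pairs stayed positive. These values kept the centring over all 11 libraries, so Rosa26-edited 1 still entered them through the mean of r770. Within r770 alone (n = 6) the median r was 0.84, and 19 pairs passed by Pearson's r and 4 by Spearman's rho with an exact permutation test. Those 6 libraries include Rosa26-edited 1. Without it (n = 5, not tested) the median r within r770 was 0.68, with a range of -0.96 to 0.99 and 34 of 45 pairs positive.

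Egr1 and Zfp36 were the most alike, with r = 0.97 (adjusted permutation p = 0.0103) and rho = 0.93 (adjusted permutation p = 0.0213). Their r was 0.89 without the 2 libraries farthest from the median of Egr1, which were Rosa26-edited 1 and 2, and 0.97 within r770. Junb and Ier2 had r = 0.94 (adjusted permutation p = 0.0103) and rho = 0.97 (adjusted permutation p = 0.0207), with r = 0.82 without the 2 farthest libraries. Fos and Junb had r = 0.90 (adjusted permutation p = 0.0103) and rho = 0.92 (adjusted permutation p = 0.0213), with r = 0.81 without the 2 farthest libraries. The pair of feedback genes, Zfp36 and Dusp1, had r = 0.89 (adjusted permutation p = 0.0103) and rho = 0.89 (adjusted permutation p = 0.0243), with r = 0.92 without the 2 farthest libraries. Centred anew without Rosa26-edited 1, r for these pairs in the same order was 0.92, 0.83, 0.81 and 0.91.

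Without Rosa26-edited 1 the median r over the 45 pairs was 0.66, with 41 positive, and the genes no longer formed a single group. Fos, Fosb, Jun, Junb, Egr1, Ier2, Zfp36 and Dusp1 kept medians of 0.60 to 0.82 with the other 9 genes. Nr4a1 had a median of 0.43 with the other 9, against 0.77 with all libraries. Klf6 had a median of 0.05, against 0.63 with all libraries, and its r with Nr4a1 was -0.25. The co-variation of Klf6 with the other genes therefore rested on Rosa26-edited 1. Its r with Junb, its closest partner at 0.80, was 0.45 without the 2 libraries farthest from the median of Junb. Centred anew without Rosa26-edited 1 it was 0.40.

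**Figure D3:**
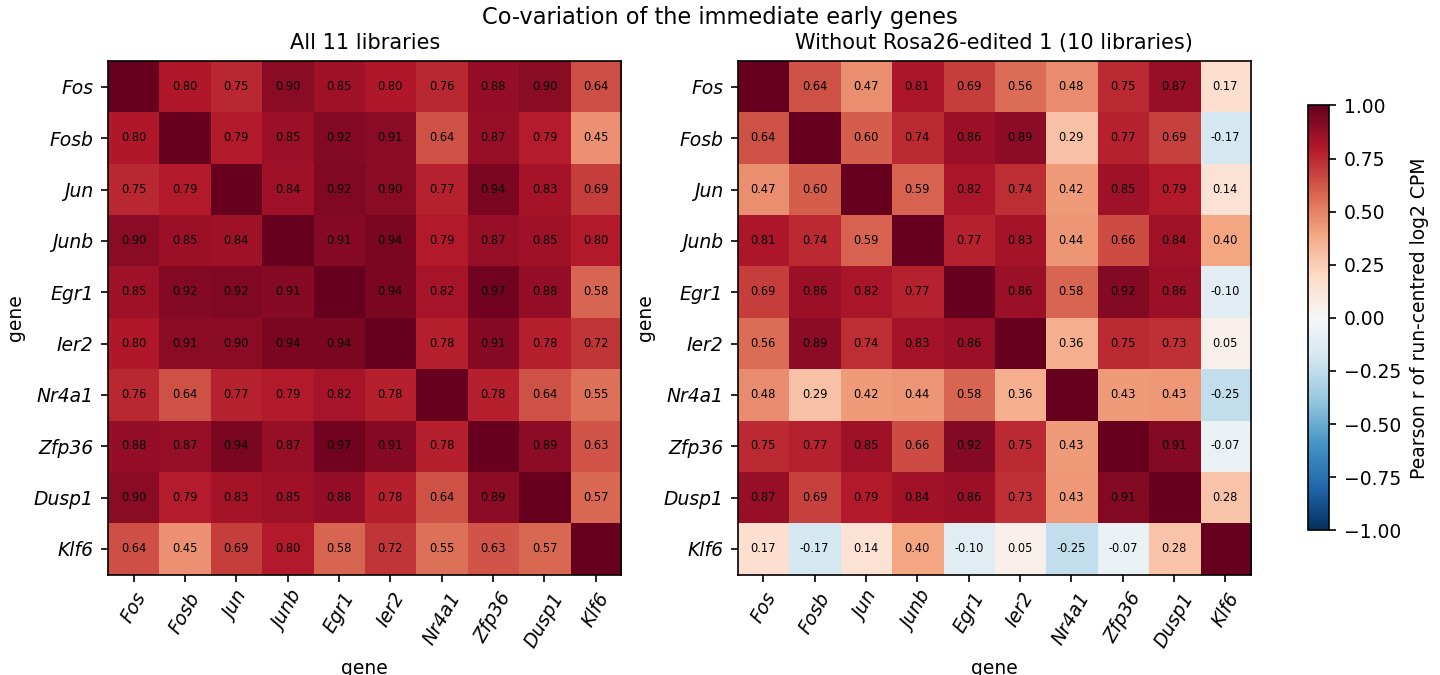
Pearson's r of run-centred log2 CPM for each pair of the 10 genes, over all 11 libraries on the left and over 10 libraries without Rosa26-edited 1 on the right, on a colour scale from -1 to 1. All pairs are positive on the left, while the Klf6 row and column lie between -0.25 and 0.40 on the right.

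Among 10785 other genes with a mean log2 CPM of at least 1, the 8 with the profile most like the mean of the 10 genes over the 11 libraries, centred within run, were Elovl5 (r = 0.93), Ehhadh (0.93), Qsox1 (0.93), Kin (0.92), Pcyt1a (0.91), Ppp1r15a (0.91), Arl4d (0.91) and Brd8 (0.91). Over the 10 libraries without Rosa26-edited 1 the same 8 had r between 0.71 and 0.84. These are descriptions over libraries that share runs, and the highest of so many genes. Ppp1r15a, a regulatory subunit of a phosphatase of the stress response, was the only one of the 8 on a list of early genes. With their own mean, which includes them, the 10 genes had r from 0.73 for Klf6 to 0.97 for Egr1. Klf6, Nr4a1 (0.83), Fosb (0.89) and Dusp1 (0.89) lay below all 8.

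The other genes of the early response were read from 3 lists. In Rosa26-edited 1, the list of other signalling and feedback genes stood a median of 0.70 above the median of the other 10 libraries on the log2 scale (30 tested), the other early transcription factors 0.36 (15 tested) and the other AP-1 and ATF genes 0.23 (11 tested), against 1.79 for the 10 immediate early genes and 0.01 over all genes. Rosa26-edited 1 was the highest library for 13 of 30, 2 of 15 and 3 of 11 genes of these lists, and for 4.96% of all genes with a symbol of their own. Atf3, a stress-induced partner of JUN proteins, had a lowest value of 6.02, a median of 13.3 and a highest value of 19.9 CPM in WRE-edited libraries, against 149, 14.1, 6.49, 6.55 and 10.1 CPM in Rosa26-edited 1 to 5. Its log2 fold change was -1.26 ± 0.96 (SE; edgeR adjusted p = 0.656) with all libraries and 0.43 ± 0.41 without Rosa26-edited 1. Btg2, an antiproliferative early gene chosen here after its values were seen, had 18.9 to 35.3 CPM in WRE-edited libraries, against 191 CPM in Rosa26-edited 1 and 21.8 to 33.4 CPM in the other Rosa26-edited libraries.

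By the edit comparison, 0 genes of these 3 lists passed over all genes in edgeR. At an unadjusted p under 0.05 there were 1 of 11 AP-1 and ATF genes (higher), 0 of 15 transcription factors, and 3 of 30 signalling and feedback genes (2 higher, 1 lower), beside 4.95% higher and 5.14% lower over all genes. Without Rosa26-edited 1 there were 3 of 12 (higher), 1 of 16 (higher) and 5 of 30 (4 higher, 1 lower), beside 3.96% higher and 3.76% lower over all genes, and 0 passed. The medians of the log2 fold changes with all libraries were 0.094 for AP-1 and ATF genes, 0.18 for transcription factors and 0.12 for signalling and feedback genes. Without Rosa26-edited 1 they were 0.41, 0.23 and 0.35 in the same order of lists. Cebpb, a liver transcription factor of the bZIP class, had 57.1 ± 21.7 CPM in WRE-edited libraries (SD, n = 6) and 43.9 ± 10.5 CPM in Rosa26-edited libraries (SD, n = 5), a log2 fold change of 0.65 ± 0.18 (edgeR adjusted p = 0.384). Plk2, a polo-like kinase induced early by serum, had 24.6 ± 4.75 CPM in WRE-edited and 34.5 ± 6.15 CPM in Rosa26-edited libraries, a log2 fold change of -0.54 ± 0.17 (edgeR adjusted p = 0.398). Cebpd (0.30 ± 0.22), Fosl2 (0.40 ± 0.29), Zfp36l2 (0.59 ± 0.24), Ier5 (0.36 ± 0.17), Gadd45a (-0.94 ± 0.44, and -0.23 without Rosa26-edited 1), Klf10 (0.53 ± 0.40), Hes1 (-0.37 ± 0.30), Id3 (0.27 ± 0.22) and Egr2 (0.57 ± 0.60) were the other genes with the smallest p in these lists, none of which passed (log2 fold change ± SE). Egr2 rests on very few counts, with means of 0.39 CPM in WRE-edited and 0.35 CPM in Rosa26-edited libraries.

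Genes upstream of the response, coding for SRF, the ELK factors, CREB and MAP kinases, did not stand high in Rosa26-edited 1, with a median of -0.02 and a range of -0.43 to 0.84 over 25 genes. Elk3 alone had its highest value there, near the 4.96% of all genes that did. By edit, 0 of 25 passed and 3 were higher at an unadjusted p under 0.05, with a median log2 fold change of 0.078, beside the 4.95% of all genes that were higher at that p. Without Rosa26-edited 1 there were 2 of 25, beside 3.96%. The 3 were Map2k2 (0.36 ± 0.13), Map2k3 (0.33 ± 0.12) and Mapk14, the p38α kinase (0.28 ± 0.11), and Map2k6 came next (-0.64 ± 0.36). Heat shock genes, which encode chaperones induced by protein damage, had a median of -0.22 in Rosa26-edited 1. Of these, 0 of 15 had their highest value there, a count too small to differ from the 4.96% of all genes. By edit, 0 of 15 passed and 2 were higher at an unadjusted p under 0.05, the small chaperone gene Hspb1 (0.71 ± 0.19, at 13.6 ± 3.50 CPM in WRE-edited and 9.48 ± 2.38 CPM in Rosa26-edited libraries) and Bag3 (0.60 ± 0.21), followed by Hsp90ab1 (0.27 ± 0.13) and Dnajb4 (-0.33 ± 0.16). These 2 of 15 also stand beside 4.95% over all genes, and there were 2 of 15 without Rosa26-edited 1, beside 3.96%. The list's median log2 fold change was 0.052, and 0.039 without Rosa26-edited 1.

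Of 10 inflammatory transcripts that tristetraprolin is known to bind, 8 were tested, 0 passed and 0 had an unadjusted p under 0.05 by edit, with a median log2 fold change of -0.016. Without Rosa26-edited 1 the median was 0.11, with 5 positive and 3 negative. Those with the smallest p were Ccl3 (0.67 ± 0.40), Icam1 (0.29 ± 0.23), Il1b (-0.29 ± 0.33) and Csf1 (0.11 ± 0.14). Ccl3 rests on very few counts, with means of 0.47 CPM in WRE-edited and 0.42 CPM in Rosa26-edited libraries. In Rosa26-edited 1 the 8 stood a median of 0.13 above the median of the other libraries, and Cxcl2 alone was highest there, beside 4.96% of all genes.

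**Figure D4:**
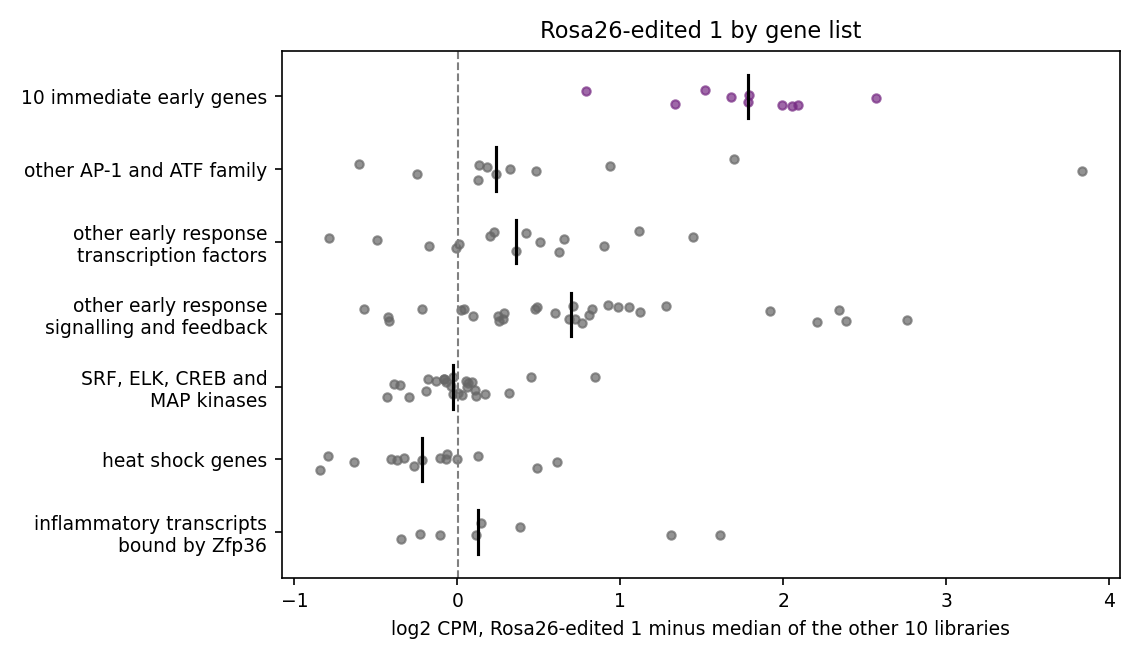
Log2 CPM in Rosa26-edited 1 minus the median of the other 10 libraries, a point per gene, for the immediate early genes (purple) and 6 related lists (grey), with a bar at each list's median and a dashed line at the median of all genes. The 10 immediate early genes lie between 0.79 and 2.57, and the heat shock and upstream lists lie around the dashed line.

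Markers of other cell types were read in the same libraries, since any cell can induce early genes and, in bulk RNA, fewer cells of a type and less RNA per cell cannot be told apart. Rosa26-edited 1 was the highest library for none of the 8 summed marker lists. A few abundant genes can dominate such sums. Gene by gene, log2 CPM in Rosa26-edited 1 minus the median of the other 10 libraries had a median of 0.45 for stellate cells and fibroblasts, 0.31 for sinusoidal endothelium and 0.25 for macrophages. It was 0.18 for erythroid cells, 0.11 for hepatocytes, -0.22 for cholangiocytes, -0.42 for lymphocytes and -0.60 for neutrophils, against 0.01 over all genes. All 8 hepatocyte markers were detected in every library, at a summed 45382 to 62872 CPM in WRE-edited and 48258 to 61649 CPM in Rosa26-edited libraries, 61418 in Rosa26-edited 1. Macrophage and Kupffer cell markers summed to 346 to 468 CPM in WRE-edited libraries, against 465 in Rosa26-edited 1 and 312 to 1081 CPM in the other Rosa26-edited libraries. Sinusoidal endothelial markers summed to 132 to 206 CPM in WRE-edited libraries, against 204 in Rosa26-edited 1 and 146 to 219 CPM in the others. Kdr, Pecam1 and Lyve1, 3 of the 8, had their highest value in Rosa26-edited 1, as did 4.96% of all genes. They stood 0.13, 0.04 and 0.36 above the next library on the log2 scale. Stellate cell and fibroblast markers summed to 40.5 to 105 CPM in WRE-edited libraries, against 71.2 in Rosa26-edited 1 and 74.4 to 101 CPM in the others. Much of these sums was Reln alone, at 18.4 to 61.6 CPM in WRE-edited libraries, 21.4 in Rosa26-edited 1 and 29.5 to 59.3 CPM in the others. The low sum of Rosa26-edited 1 in its group is thus not shared by the list gene by gene. These 3 lists had 8 of 8 markers above 0 in every library. Sums in WRE-edited libraries, against Rosa26-edited 1 and the other Rosa26-edited libraries, were 6.09 to 13.3, 9.64 and 7.14 to 24.3 CPM for cholangiocytes, 5.35 to 7.47, 5.15 and 5.17 to 23.0 CPM for neutrophils, 14.6 to 25.4, 20.9 and 17.1 to 41.9 CPM for lymphocytes, and 8.35 to 11.4, 7.82 and 9.39 to 32.1 CPM for erythroid cells. In these 4 lists up to 4 of 8 lymphocyte markers and up to 2 of 6 markers of each other list were at 0 in a library, the T cell marker Cd3e among them. The part of any cell type in the spread of the early genes was not tested.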

How the data were processed

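RNA-seq values are expected counts per Ensembl gene, deposited in a table per library, and the submitters' processing notes name STAR 2.7.6a, RSEM 1.3.1 and the GRCm38 build. Neither source gives the annotation version or the strand setting. The deposited tables also hold TPM from RSEM, used to rank genes, and other values, the effective length in bases, per the file headers. The run was read from the library names in the labels.

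Expected counts were rounded. Of 55536 identifiers, 55450 matched the gene name table. Totals were 20727024 to 38935115 per library. Tests used R 4.3.3 and edgeR 4.0.16 (filterByExpr by group with count and total minima of 10 and 15, TMM, robust quasi-likelihood fit, two-sided) on run and group with 7 residual degrees of freedom. Benjamini-Hochberg adjustment ran over all genes tested. The effect comes from r770 and r595, while r711 informs the spread. DESeq2 1.42.0 was an alternative. CPM are scaled with TMM factors, and log2 CPM has a prior count of 2. Counts of libraries within a group differed by more than sampling noise (chi-square per degree of freedom of at least 24.6), so no pair was merged in the main fit. The methods were tested on simulated data.

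The 10 genes and all lists were chosen with earlier results of these data known. Besides the 10 genes, up to 4 genes of each related list by smallest p and the 8 genes most like their mean were named. Alternatives covered the tool, scaling, filter, run term, block, length offsets, mitochondrial genes and each library left out. The deposited normalized matrix, the miRNA counts and the design tables were not used. None of the 10 genes overlaps another gene in RefSeq's GRCm38.p6 table, from which positions were taken.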

Additional observations from a re-analysis of the deposited data

Results flagged for a closer look

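In 9 of 88 sets of values (a gene, marker list or library measure in a group), 1 library lay far from the rest of its group by Dixon's criterion at the 95% level. Chance alone flags about 1 set in 20 if values are normally distributed and sets are independent. These sets share libraries and hold genes that vary together, so flags for the same library are not separate events. Of the 9, 7 were Rosa26-edited 1 among the 5 Rosa26-edited libraries. For the immediate early genes these were Fos at 65.0 CPM (next 22.6), Junb at 93.8 CPM (next 32.5), Egr1 at 53.2 CPM (next 17.1), Ier2 at 31.3 CPM (next 7.31) and Klf6 at 106 CPM (next 31.4). Atf3 at 149 CPM (next 14.1) and Gadd45a at 5.95 CPM (next 1.82) were high in the same library. The others were Icam1 at 37.1 CPM in Rosa26-edited 5 (next 23.9) and the summed erythroid markers at 32.1 CPM in Rosa26-edited 2 (next 10.98). None of the 6 WRE-edited libraries was far from its group by this criterion in any of these sets.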

How the results depend on the processing

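Leaving out Rosa26-edited 1 turned the sign of 7 of the 10 genes. Over the 11 libraries left out in turn, the log2 fold change ranged from -0.56 to 0.56 for Jun, -0.69 to 0.23 for Junb, -1.08 to 0.16 for Egr1, -1.01 to 0.36 for Ier2, -0.66 to 0.089 for Zfp36, -0.24 to 0.21 for Dusp1 and -0.79 to 0.43 for Klf6, the median of the 10 genes from -0.85 to 0.18, their median residual SD from 0.56 to 0.97 and their median pair correlation from 0.66 to 0.85. Dusp1 also turned without WRE-edited 1 (0.12). Within r770 without Rosa26-edited 1, an alternative chosen after seeing the data, Jun had 0.54, Junb 0.25, Egr1 0.082, Ier2 0.44, Zfp36 0.15, Dusp1 0.30 and Klf6 0.39. Fos, Fosb and Nr4a1 stayed negative in every alternative run.

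Among the alternatives run, only the fit without a filter called any of the 10 genes, 3 of them (Fos, Egr1 and Nr4a1, adjusted p = 1.9e-07, 0.0179 and 0.00165 in edgeR), where 450 genes were called and the interaction gave 251. The cause was not tested, and the share of the genes of that fit that the 450 make up is not given here. Over all genes 1 call became 81 with DESeq2, 0 without the run term, within r770 and within r770 without Rosa26-edited 1, 2 with a replicate block and the run term, and 0 to 2 with 1 library left out. For the interaction, leaving out 1 library gave 0 to 2 calls over all genes, and WRE-edited 6 could not be left out. Replicate numbers were not taken as pairs: same-number correlations over all genes, not centred by run, ran from -0.09 to 0.18. Whether libraries of the same number were prepared together was not tested. With the replicate block all 10 genes stayed negative, from -0.94 to -0.11 with the run term and from -0.90 to -0.18 without it, and none was called. WRE-edited 4 and 6, which share a number in their names, were also summed and fitted without a run term. All 10 genes were then negative, from -1.13 to -0.17 with a median of -0.63, and none was called. Low counts limit Fosb most.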
